A study of Caenorhabditis elegans with 2 samples.

Results

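A divergent promoter is the stretch of DNA between neighbouring protein-coding genes that lie on opposite strands and are transcribed away from each other. Such intervals were taken from the Ensembl annotation of the C. elegans genome (assembly ce11, 19973 protein-coding genes), where the outermost 5′ starts of the genes lay at most 1000 bp apart. Of 1745 such intervals, 730 held the summit of at least 1 candidate peak of tagged BED-2 and are described here, which is 41.8% (95% Clopper-Pearson interval 39.5 to 44.2). The other 1015 held none. Of the 730 intervals, 91 also held the summit of a peak of the authors' conservative list, which keeps peaks that ranked alike in the replicates. Candidate peaks are those of the longer ranked list.

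BED-2 was mapped by chromatin immunoprecipitation and sequencing (ChIP-seq), in which DNA bound by a protein is recovered with an antibody. The worms were of strain RW12335, whose bed-2 gene on chromosome III carries a TY1, EGFP and 3xFLAG tag (st12335) inserted with CRISPR, and the antibody recognised GFP. There was 1 group of 2 biological replicates, each of whole young adults of 63 hours after synchronization by L1 starvation, so that binding in different tissues is summed and no tissue can be named. Chromatin was sonicated to 200 to 800 bp.

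BED-type zinc fingers are DNA-binding domains named after the Drosophila proteins BEAF and DREF, which sit at insulators and at promoters of growth genes. In the compact genome of C. elegans, many neighbouring genes share 1 short stretch of regulatory DNA, from which transcription runs both ways. A protein bound there lies upstream of both genes, so a peak alone does not say which gene it acts on.

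The windows with the highest signal show the DNA at which the summits lay. They are 8 of the 12 strongest divergent promoters, each with 50 bp on either side of the summit, or with the whole interval for the short promoter between cux-7 and C07H6.2. Sequence is the plus strand of ce11, 5′ to 3′, from the RefSeq genome. The minus-strand gene is named before the slash and lies to the left, and the plus-strand gene lies to the right. Capitals mark GGCCAC or its reverse complement, and CATACACT or its reverse complement, which were read from these windows after they had been seen.

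K01G5.10/tasp-1, III:10759218-10759318: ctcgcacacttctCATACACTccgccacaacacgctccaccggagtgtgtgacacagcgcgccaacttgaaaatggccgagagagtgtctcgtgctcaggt
prp-19/K10D2.5, III:5172617-5172717: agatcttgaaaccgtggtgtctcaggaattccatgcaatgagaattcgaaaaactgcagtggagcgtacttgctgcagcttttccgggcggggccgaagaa
rpl-15/K11H12.8, IV:654869-654969: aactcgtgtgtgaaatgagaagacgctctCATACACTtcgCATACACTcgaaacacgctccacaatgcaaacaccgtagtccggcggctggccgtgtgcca
cux-7/C07H6.2, III:7520845-7521009: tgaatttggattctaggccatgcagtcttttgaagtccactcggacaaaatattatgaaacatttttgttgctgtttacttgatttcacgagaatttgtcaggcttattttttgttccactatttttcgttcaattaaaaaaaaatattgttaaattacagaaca
rps-23/dpm-3, IV:12391279-12391379: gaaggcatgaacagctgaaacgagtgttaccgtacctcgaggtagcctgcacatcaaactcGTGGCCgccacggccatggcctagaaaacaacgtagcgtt
Y22D7AL.10/hsp-60, III:1619076-1619176: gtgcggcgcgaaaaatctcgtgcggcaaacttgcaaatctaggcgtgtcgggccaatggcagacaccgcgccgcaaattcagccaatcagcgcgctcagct
rpl-20/Y17G9B.5, IV:4750019-4750119: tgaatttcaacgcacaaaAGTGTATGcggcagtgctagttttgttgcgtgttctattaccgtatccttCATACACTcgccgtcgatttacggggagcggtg
ahsa-1/C01G10.7, V:15085557-15085657: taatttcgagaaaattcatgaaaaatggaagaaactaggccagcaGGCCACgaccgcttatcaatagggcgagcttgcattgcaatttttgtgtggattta

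CATACACT occurred in the windows of K01G5.10/tasp-1, rpl-15/K11H12.8 and rpl-20/Y17G9B.5, and the latter 2 windows held 2 copies each. In rpl-20/Y17G9B.5 the copies were on opposite strands. GGCCAC occurred once in rps-23/dpm-3 and once in ahsa-1/C01G10.7. Over 50 bp on either side of the summit, the GC content of the 8 promoters ran from 39.6% in cux-7/C07H6.2 to 59.4% in Y22D7AL.10/hsp-60. The latter window held 12 CG dinucleotides. The whole interval printed for cux-7/C07H6.2 had a GC content of 29.7%.

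The peak between K01G5.10 (WBGene00010481) and tasp-1 (WBGene00010480) was the strongest at any divergent promoter. The gene tasp-1 encodes a taspase, a protease of the threonine aspartase family. Signal, the value that the authors' peak caller gave each peak, was 150.7 in replicate 1, 202.3 in replicate 2 and 352.8 in the list made from both. The summit lay 39 bp from the tasp-1 start and 746 bp from that of K01G5.10, and the peak covered the tasp-1 start alone. This value serves here to describe peaks and put them in order. No read counts are given, which leaves sequencing depth unknown, and the intervals below reflect counting error over regions alone.

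Ribosomal protein genes supplied 3 of the 12 strongest divergent promoters. Between rpl-15, of the large subunit, and K11H12.8, the pooled signal was 264.1, with 136.7 in replicate 1 and 126.6 in replicate 2. Between rps-23, of the small subunit, and dpm-3, which encodes a subunit of dolichol-phosphate mannose synthase, it was 203.1, 103.8 and 100.6 in the same order. Between rpl-20 and Y17G9B.5 it was 189.3, 70.6 and 111.5. The replicates were nearly equal at rps-23/dpm-3, with a log2 ratio of replicate 1 to replicate 2 of 0.05, and less so at rpl-20/Y17G9B.5, with -0.66. The summit lay close to the midpoint at rps-23/dpm-3, 276 bp from rps-23 and 258 bp from dpm-3.

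Genes of the chaperone list were at 2 of the 12, hsp-60 and dnj-28. The promoter shared by Y22D7AL.10 and hsp-60, which encodes the mitochondrial chaperonin, had a pooled signal of 189.9, with 98.8 in replicate 1 and 92.7 in replicate 2. That of supr-1 and dnj-28, which encodes a J-domain co-chaperone, had 283.0, with 141.0 and 134.8. The summit window of supr-1/dnj-28 had 281 further matches in the genome of at least 50 bases and 80% identity, and the part that reads from such copies have in its signal was not tested. None of the other 11 windows had one. The promoter of ahsa-1, in no list and the counterpart of the human activator of HSP90, and C01G10.7 had 187.6, with 100.7 and 82.9. The hsp-60 summit was 616 bp from the hsp-60 start and 197 bp from that of Y22D7AL.10.

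Splicing and energy genes were among the rest. The promoter of prp-19, a core splicing ubiquitin ligase, and K10D2.5 had a pooled signal of 275.2, with 149.3 in replicate 1 and 121.0 in replicate 2. Its summit lay 53 bp from K10D2.5 and 622 bp from prp-19. The promoter of F56G4.6 and wbp-4 had 256.2, with 104.2 and 155.9. That of atp-5, a subunit of ATP synthase, and lmtr-3, a counterpart of the Ragulator subunit LAMTOR3, had 163.7, with 71.4 and 89.1. That of F09E5.11 and bmy-1 had 170.1, with 89.4 and 74.7. 

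The promoter of cux-7 and C07H6.2 spans 164 bp between the starts. Its pooled signal was 210.5, with the summit 29 bp from cux-7, and the signal in replicate 2 was 97.3. Replicate 1 had no summit in the interval, but its nearest summit lay 4 bp outside and had a signal of 112.4. Both replicates thus had a candidate summit in this interval or within 4 bp of it. The end of the interval near which the replicate 1 summit lay was not recorded.

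**Figure D1:**
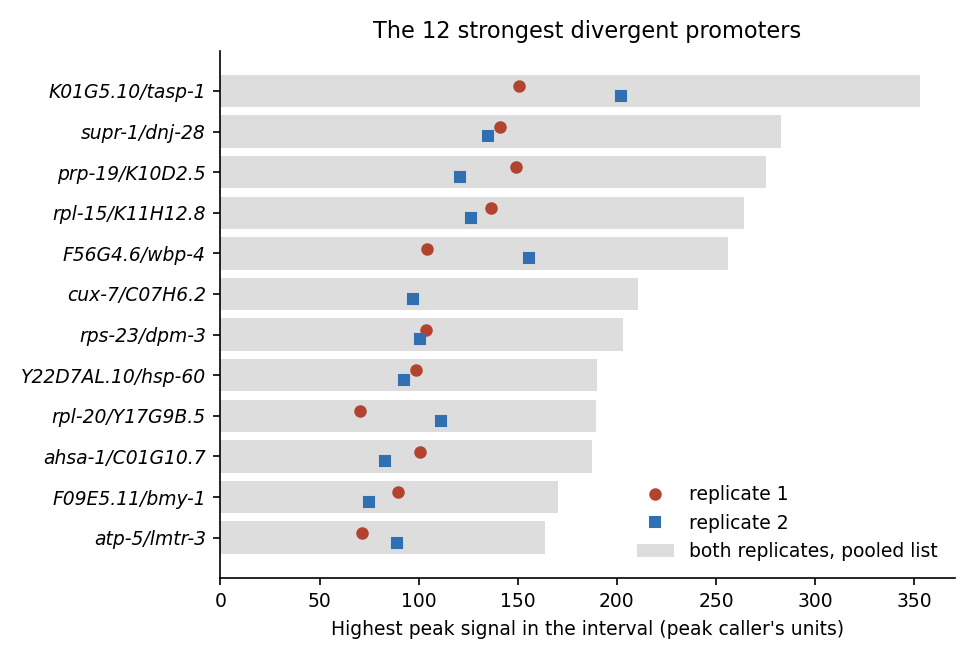
Highest signal in the 12 strongest divergent promoters with a conservative summit, in the peak caller's units. Grey bars show the pooled list (352.8 to 163.7), circles replicate 1 and squares replicate 2. The replicates are nearly equal at rps-23/dpm-3. By ratio they are farthest apart at rpl-20/Y17G9B.5 (70.6 and 111.5), though on this axis wider gaps are at F56G4.6/wbp-4 (104.2 and 155.9) and K01G5.10/tasp-1 (150.7 and 202.3). The promoter cux-7/C07H6.2 has no circle because its replicate 1 summit lay 4 bp outside.

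A conservative summit lay in 91 of the 730 divergent promoters, or 12.5% (interval 10.2 to 15.1). The share among one-sided promoters was 3.04%, 198 of 6523 (2.63 to 3.48). A one-sided promoter is the 1000 bp upstream of a protein-coding gene with no diverging neighbour in reach, ended at the next gene body, and holding a candidate summit. The intervals of the shares do not overlap, and the divergent share was 4.11 times the one-sided one. Over promoters of both kinds that held a candidate summit it was 3.98%, and over all 82301 candidate peaks 0.747%. A divergent interval counts once here although it serves a pair of genes. From the lists of 1 replicate alone the divergent share was 7.34% (replicate 2) and 8.5% (replicate 1), and at a stricter irreproducible discovery rate of 0.001 it was 5.34%. The difference was described by its intervals and was not tested.

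A candidate summit of any strength was found in 41.8% of divergent and 43.1% of one-sided intervals. Counted by summit, 95 of 849 candidate summits in divergent promoters (11.2%, 9.15 to 13.5) were in the conservative list, against 213 of 8855 in one-sided promoters (2.41%, 2.1 to 2.75). Over all intervals, with or without a candidate, 5.21% of divergent and 1.31% of one-sided promoters held a conservative summit.

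Divergent promoters are shorter than one-sided ones, so the shares were set side by side at equal length. A one-sided interval shorter than 1000 bp ends at another gene body. Whether its gene has a promoter of its own there was not tested. Among intervals of 251 to 500 bp, 43 of 212 divergent promoters (20.3%, 15.1 to 26.3) and 19 of 376 one-sided promoters (5.05%, 3.07 to 7.78) held a conservative summit. From 501 to 999 bp, 37 of 446 divergent (8.3%, 5.91 to 11.3) and 31 of 867 one-sided promoters (3.58%, 2.44 to 5.04) did. Up to 250 bp, 11 of 72 divergent (15.3%, 7.88 to 25.7) and 7 of 219 one-sided promoters (3.2%, 1.29 to 6.47) did. The intervals of the 2 kinds do not overlap in any of the 3 length bands, and the divergent share was 4.78, 4.01 and 2.32 times the one-sided share from the shortest band to the longest. Within divergent promoters the band of 251 to 500 bp stood above that of 501 to 999 bp. Those with a conservative summit had a median length of 457 bp (398 to 534), against 593 bp (570 to 619) for those without.

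**Figure D2:**
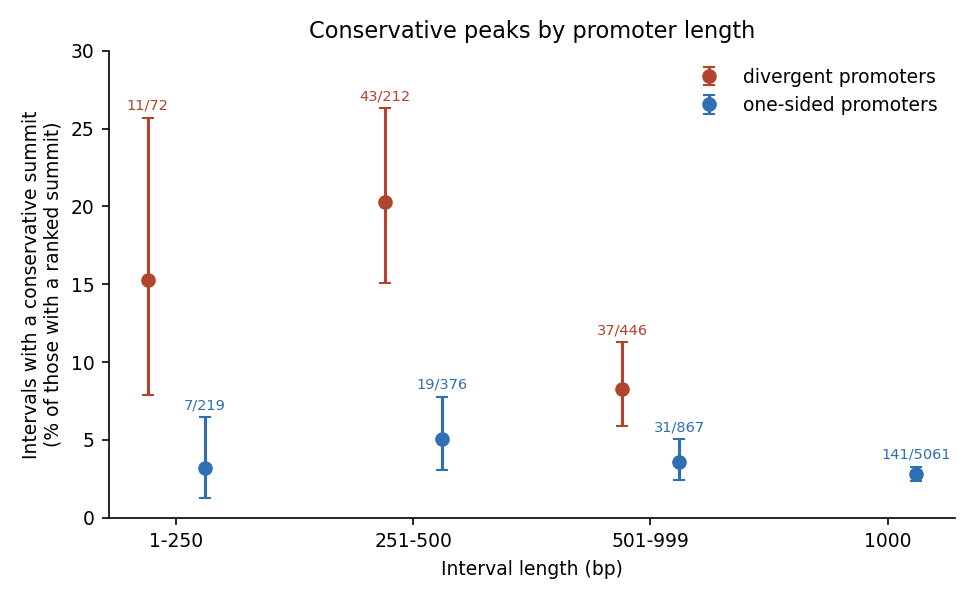
Share of promoters with a candidate summit that also held a conservative summit, in percent, by interval length in bp; points are shares, bars 95% Clopper-Pearson intervals and numbers the counts. Divergent promoters lie above one-sided promoters in each shared length band, and the highest point is 20.3% at 251 to 500 bp.

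The 3 intervals nearest the length limit on each side had no conservative summit. The 3 widest divergent promoters, ceh-7/prx-5 (995 bp), hgap-2/C34C6.9 (999 bp) and msrp-4/F46F5.10 (999 bp), had signals of 14.9, 12.5 and 26.3. The nearest pairs beyond it, srj-49/ugt-53 (1003 bp), srh-236/srh-113 (1004 bp) and gcy-32/str-252 (1006 bp), had 14.8, 41.4 and 20.3.

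Signal was set side by side for the promoter kinds. Among promoters with a conservative summit, the median signal was 94.7 (88.3 to 106.6) for the 91 divergent and 92.3 (86.9 to 98.2) for the 198 one-sided promoters. Those intervals overlap, and both sets had passed the same threshold on ranks. Over all promoters with a candidate summit the medians were 28.6 (26.9 to 29.7) and 24.7 (24.4 to 25), against 21 for all candidate peaks. A signal of at least 100 was found in 40 divergent promoters (5.48%, 3.94 to 7.39) and 80 one-sided promoters (1.23%, 0.974 to 1.52). Of the 50 strongest conservative peaks of the genome, 13 lay in divergent promoters, and of the 100 strongest, 21 did, beside 95 of all 615 (15.4%, 12.7 to 18.5).

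Conservative status is itself set from the ranks of peaks, so its relation to signal is no finding. Signal alone did not decide it. The lowest signal with a conservative summit was 65.3 and the highest without was 98.4, and 21 promoters without one lay at or above 65.3. That highest one lies between slc-25A42, of the mitochondrial carrier family, and cfim-1, of the pre-mRNA cleavage machinery. Its signal was 24.1 in replicate 1 and 77.3 in replicate 2. The promoters of srz-97/clec-57 (pooled 77.6, then 17.9 and 58.7) and madf-11/xnd-1 (71.4, then 48.1 and 20.6) followed. The replicates differed in all 3, with log2 ratios of -1.68, -1.71 and 1.22, and the first has a −log10 global irreproducible discovery rate (IDR, which compares the ranks of peaks between replicates) of 1.93.

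Summits of conservative peaks lay nearer the midpoint of the interval than the other summits did. On a scale with 0 at the midpoint and 100 at a start, their median was 34.2 (25 to 41.9), while the strongest summit of divergent promoters without a conservative peak had 50.3 (44.2 to 53.9). A summit placed evenly along the interval has an expectation of 50. Between 0 and 20 on that scale were 29.7% of the 91 summits, between 20 and 40 were 30.8% and between 80 and 100 were 8.79%, whereas the 639 others had between 19.4% and 20.3% in each step of 20. In the central part of the interval, cut in 3 equal parts, were 44 of 91 summits (48.4%, 37.7 to 59.1) against 212 of 639 (33.2%, 29.5 to 37).

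**Figure D3:**
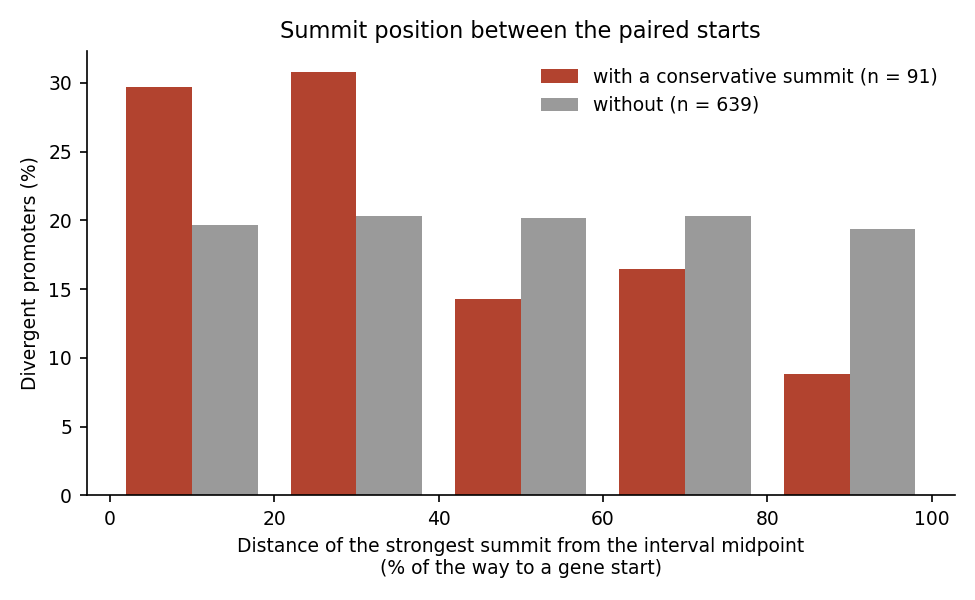
Distance of the strongest summit from the midpoint of the divergent promoter, from 0 (midpoint) to 100 (a gene start), as the percent of promoters with (n = 91) and without (n = 639) a conservative summit. Red bars are highest below 40, at 29.7% and 30.8%, and grey bars are level.

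Interval length bears on this position. At 251 to 500 bp the medians were 26 (16.1 to 35.8) with and 43.8 (36.6 to 57.4) without a conservative summit, and at 501 to 999 bp they were 38.6 (23.4 to 47.0) and 50.8 (45.1 to 54.4), where the intervals overlap. The 11 promoters of up to 250 bp had 55.6 (17.6 to 68.5), too wide an interval to place. In base pairs, conservative summits lay a median of 151 bp (120 to 173) from the nearer start and 291 bp from the farther. The others lay 126 bp (115 to 137) and 427 bp away. A start was within 100 bp of the summit in 32 of 91 promoters (35.2%, 25.4 to 45.9) and 260 of 639 (40.7%, 36.9 to 44.6), and these intervals overlap. Both starts were within 300 bp of the summit in 47 of 91 promoters (51.6%, 40.9 to 62.3) against 174 of 639 (27.2%, 23.8 to 30.9), a measure that the shorter intervals also raise.

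No preference for a strand was detectable. The summit was nearer the minus-strand gene in 40 of 91 promoters (44.0%, 33.6 to 54.8), an interval that includes an even split. The peak itself, 320 bp wide in 83 of the 91, covered both starts in 11 promoters, a single start in 34 and neither in 46. One conservative summit per interval was the rule, in 87 of 91, and 4 had 2 or more.

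Promoters with a conservative summit spanned 12 to 989 bp. F32D8.14 and F32D8.5 start 12 bp apart, and their peak covers both starts with a signal of 70.3. Of the 7 divergent promoters under 100 bp, 3 held a conservative summit. Besides this one they were C01G10.10/C01G10.9 (89 bp, signal 79.6) and ears-2/uncp-18 (92 bp, 106.6), and there too the peak covered both starts. These peaks are 320 bp wide around the summit, so in intervals under 100 bp this coverage follows from the peak width. The gene ears-2 encodes a glutamyl-tRNA synthetase. Among the widest with a conservative summit, larp-1/wip-1 (989 bp, 88.3) had its summit 287 bp from wip-1, the counterpart of the WASP-interacting protein. E04F6.6/pcrg-1 (984 bp, 106.4) had it 241 bp from pcrg-1, and iff-2/F54C9.14 (935 bp, 124.0) had it 72 bp from iff-2, an eIF5A gene.

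Conservative peaks are those that ranked alike in the replicates, so their closeness between replicates follows from how they were chosen and is given as a description. Of the 91, 87 had a summit in the interval in replicate 1's own list and 90 in replicate 2's. The medians were 49.6 (43.9 to 53.3) in replicate 1 and 47.6 (44.3 to 53.8) in replicate 2. The median log2 ratio was 0.00 (-0.13 to 0.11) over the 86 promoters with both, and 44 of them were higher in replicate 1. In promoters without one, medians were 16.8 and 18.7. Spearman's rho between replicates was 0.67 over the 306 promoters with both values, 0.473 over the 86 with a conservative summit and 0.271 over the 220 without. These are descriptions over regions of the same libraries, with no test.

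**Figure D4:**
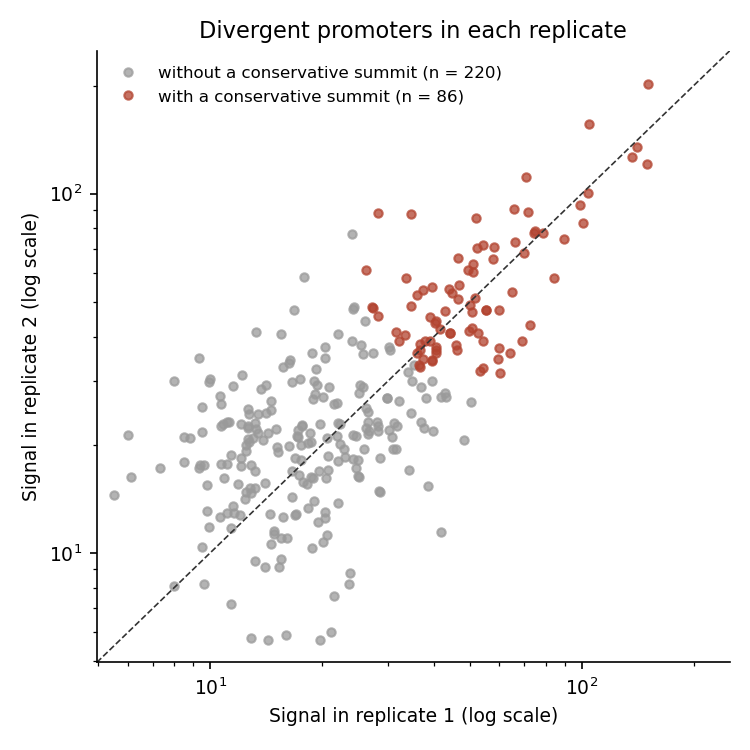
Highest signal of each divergent promoter in replicate 1 (x) and replicate 2 (y), both on log scales in the peak caller's units, with the line of equality dashed. The 86 promoters with a conservative summit lie around the line at the upper right and the 220 others spread more widely below.

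Among the 86, the extremes of the ratio were 3 promoters at either end, while ratios of the 220 others ran from -1.91 to 1.88. Signal at drr-2/set-16 was 28.3 in replicate 1 and 88.2 in replicate 2, a log2 ratio of -1.64, at a summit 173 bp from both starts. The gene set-16 encodes an MLL-type histone methyltransferase. Next were iff-2/F54C9.14 (34.6 and 87.6, -1.34) and cest-5.1/C01B10.9 (26.2 and 61.2, -1.22). In the other direction were tim-1/Y75B8A.23 (60.2 and 31.6, 0.93), exoc-7/tufm-2 (64.1 and 35.9, 0.84) and hsp-110/rpn-3 (68.9 and 39.0, 0.82). Each of the 6 had a candidate peak in both replicates' own ranked lists, and they differed in its size. In the shorter, thresholded lists each was found for 1 replicate alone, the one with the higher signal.

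Of the 5 promoters missing a summit in 1 replicate, 3 had one just outside the interval. Besides cux-7/C07H6.2, the nearest replicate 1 summit was 2 bp outside at T05A12.3/T05A12.4 (signal 51.0) and 2 bp outside at rpl-7A/set-21 (46.4). It was 35 bp outside at F32D8.14/F32D8.5 (33.7). At rsy-1/Y53H1A.2 the nearest replicate 2 summit was 515 bp outside. The thresholded list of replicate 1 alone held 44 of the 91 (48.4%, 37.7 to 59.1), that of replicate 2 alone 38 (41.8%, 31.5 to 52.6), both held 26 and neither held 35. One-sided promoters with a conservative summit were in both lists in 53 of 198 cases (26.8%), against 28.6% here.

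Genes with housekeeping roles were among the partners in these promoters. Of 29 divergent promoters of ribosomal protein genes, 9 held a conservative summit (31.0%), beside 12.5% of all divergent promoters and 3 of 20 one-sided promoters of such genes. The large-subunit genes are rpl-7A, rpl-15, rpl-20 and rpl-43 and the small-subunit genes are rps-1, rps-19, rps-20, rps-23 and rps-26. Their partners include ifet-1 and the histone methyltransferase gene set-21. The median signal of all 29 was 42.5, against 28.6 for all divergent promoters. Of 18 divergent promoters of the chaperone list, 5 held a conservative summit, at dnj-28, hsp-60, hsp-110, dnj-13 and cct-7, beside 2 of 11 one-sided promoters. The median signal over the 18 was 45.1. The one-sided counts of ribosomal protein genes (3 of 20) and chaperone genes (2 of 11) lie above the 3.04% of all one-sided promoters. High shares in these lists were thus not particular to divergent promoters, although the one-sided counts are small. Genes were matched to lists by symbol alone, so a chaperone gene under another name is not counted. At hsp-110, a co-chaperone of HSP70, and rpn-3, a lid subunit of the proteasome, both genes are in the lists, and the signal was 107.5.

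Genes of chromatin regulation held a conservative summit in 5 of 13 divergent promoters, with a median signal of 59.8, and in 2 of 35 one-sided promoters. They are F29B9.11/jmjd-1.2, drr-2/set-16, lin-61/bub-1, C35A5.8/hda-11 and rpl-7A/set-21. At jmjd-1.2, a histone demethylase gene, the pooled signal was 127.2, with 58.0 in replicate 1 and 71.1 in replicate 2. The lists of DNA replication and cell cycle, splicing, translation factors and small RNA pathways gave 2 of 17, 2 of 12, 2 of 9 and 2 of 8, against 4 of 25, 2 of 8, 1 of 9 and 1 of 19 one-sided promoters. For replication and splicing genes the one-sided share was the higher. Their members include lin-35, the retinoblastoma gene, beside vps-51 (120.1), and pola-1, of DNA polymerase alpha, beside Y47D3A.1 (92.7). They also include fib-1, the fibrillarin gene, beside mut-15 of the mutator complex (96.0), and snr-1, an Sm protein gene, beside snx-13 (109.0). Further ones are eif-3.E beside B0511.17 (95.7) and ruvb-1 beside tofu-1, a gene required for piRNAs (88.6).

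The other lists had at most 1. The proteasome list had 1 of 11 (one-sided 2 of 7), that of mitochondrial ribosomal proteins 1 of 9 (C14B9.8/mrpl-18, signal 74.7, one-sided 1 of 12) and the respiratory chain 1 of 8 (one-sided 3 of 12). Collagens had 1 of 6 (col-71/Y49F6B.2, 90.7, one-sided 0 of 60) and aminoacyl-tRNA synthetases 1 of 3 (one-sided 0 of 7). Germline genes had 1 of 5 (H27M09.5/syp-4, 77.8, one-sided 2 of 16), where syp-4 encodes a part of the synaptonemal complex. Chemoreceptors had 1 of 44, at sri-5, whose partner is rsr-1 (86.4). F-box genes had 0 of 25, C-type lectins 0 of 13 and nuclear hormone receptors 0 of 7. The one-sided share was 0.515% for chemoreceptors and 0.813% for F-box genes. It was 1.43% for C-type lectins and 0.833% for nuclear hormone receptors. These shares lie below the 3.04% of all one-sided promoters, so low shares in these lists were not particular to divergent promoters. There were 0 of 3 for neuronal genes, 0 of 1 for intestine and 0 of 1 for pharynx, and no divergent promoter of the muscle list held a candidate. Of one-sided promoters, 1.41% of the neuronal list and none of the intestine, pharynx and muscle lists held a conservative summit. Of 91 promoters, 59 had no gene in any list, as had 506 of all 730. Those with a listed gene held a conservative summit in 14.3% (9.98 to 19.6) and those without in 11.7% (9.0 to 14.8), and these intervals overlap. No list was tested, and since the lists are small the counts are descriptions.

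**Figure D5:**
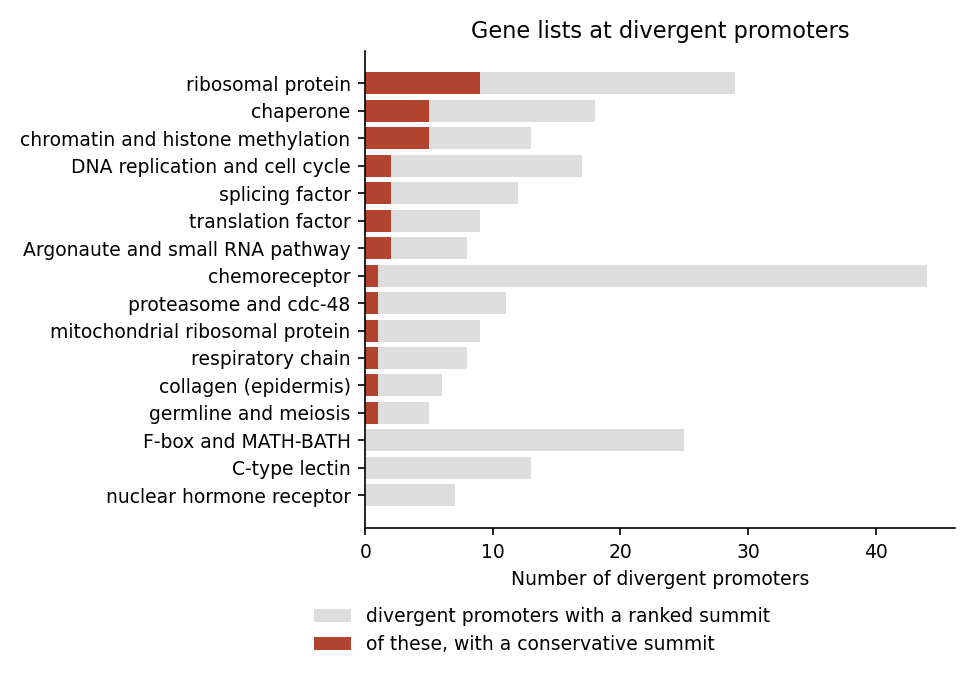
Number of divergent promoters with a gene of each list that held a candidate summit (grey) and of those with a conservative summit (red), for lists with at least 5. The longest red bars are those of ribosomal protein (9 of 29), chaperone (5 of 18) and chromatin genes (5 of 13), and the longest grey bar is that of chemoreceptors (1 of 44).

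By chromosome, conservative summits lay in 23 of 143 divergent promoters on I (16.1%, 10.5 to 23.1), 15 of 130 on II, 21 of 141 on III, 15 of 112 on IV and 16 of 174 on V (9.2%, 5.35 to 14.5). These intervals overlap, and the one-sided shares on the same 5 chromosomes ran from 1.91% on V to 4.62% on I. On the X chromosome they lay in 1 of 30 (3.33%, 0.0844 to 17.2), at C27C12.1/C27C12.4 with a signal of 71.6, beside 2.36% of one-sided promoters. The X chromosome has only 80 divergent intervals of the 1745, and its interval is wide enough to include every autosomal share but is not a statement that they are equal.

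DNA at the summits was richer in G and C where the peak was conservative. Windows reaching 50 bp to either side of the summit had a median GC of 49.5% (47.5 to 51.5) against 38.6% (37.6 to 38.6) in divergent promoters without one. One-sided promoters gave the same medians, 49.5% and 38.6%, so the contrast was not particular to divergent promoters. The contrast was larger at the summit than over whole divergent intervals, which had 35.3% (34.6 to 37.1) and 34.0% (33.6 to 34.4). CG dinucleotides numbered 7 per window (7 to 8) with and 4 (4 to 5) without a conservative summit.

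Short words were counted on both strands of these windows, 7 of them listed with earlier results of these data known and 4 read from the printed windows. ACGCGC was in 19 of 91 windows with a conservative summit (20.9%, 13.1 to 30.7) and 52 of 639 without (8.14%, 6.14 to 10.5). One-sided promoters had 19.2% and 3.29%. GCGCGC, which overlaps it, was in 15.4% and 5.79%. GTACAC was in 12.1% (6.19 to 20.6) and 3.91% (2.55 to 5.72). TATAAA ran the other way, in 2.2% (0.267 to 7.71) and 11.6% (9.2 to 14.3). GAGAGA (14.3% and 12.1%), GGGCGG (6.59% and 2.97%) and CACGTG (0 of 91 and 11 of 639) had overlapping intervals. The part of base composition in these shares was not tested. None of the 8 printed windows holds ACGCGC or GTACAC. The highest signal of a window with ACGCGC was 124.4, and with GTACAC it was 256.2, at F56G4.6/wbp-4, whose window was not printed.

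Of the words read from the windows, GGCCAC was in 18 of 91 windows with a conservative summit (19.8%, 12.2 to 29.4) and 23 of 639 without (3.6%, 2.3 to 5.35). Leaving out the 8 printed windows, it was in 16 of 83 (19.3%, 11.4 to 29.4). It was in 13.1% and 2.66% of one-sided windows. Only 1 window held both GGCCAC and ACGCGC. CATACACT was in 3 of 91 and in 0 of the 83 windows that were not printed, so its count rests on the windows it was read from. TACACT and ATACAC, contained in it, were in 4.4% each with a conservative summit and in 4.07% and 3.29% without. A word is a description of letters and not a binding site.

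Other annotated genes lay inside few of these intervals. Another gene of any kind was in 15 of 91 divergent promoters with a conservative summit (16.5%, 9.53 to 25.7) and 80 of 639 without (12.5%, 10.1 to 15.3). The annotation class ncRNA stands apart from classes such as snRNA and miRNA. Its genes were in 12 of 91 (13.2%, 7.0 to 21.9) and 55 of 639 (8.61%, 6.55 to 11.1). Intervals without any other gene held a conservative summit in 12% (9.55 to 14.8) of divergent and 2.79% (2.36 to 3.28) of one-sided promoters. No divergent promoter with a candidate summit, with or without a conservative one, contained a tRNA gene. A further copy of the summit window elsewhere in the genome was found for 13 of the 91 (14.3%, 7.83 to 23.2) and 109 of the 639 (17.1%, 14.2 to 20.2). Among named promoters these include ears-2/uncp-18 (18 matches), ruvb-1/tofu-1 (117) and H27M09.5/syp-4 (11). Without those intervals the shares with a conservative summit were 12.8% in divergent and 2.97% in one-sided promoters.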

How the data were processed

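The authors deposited 8 peak lists on assembly ce11 for 1 group of 2 replicates, 4 for the series and 4 for single replicates. Each peak carries, as deposited, a score derived from the irreproducible discovery rate, the signal of the authors' peak caller, a summit offset and, in ranked lists, the −log10 global rate. Per the text deposited beside the samples, series lists derive from both replicates and replicate lists from each with a control. Which aligner and caller were run is not given in the sources used here. In addition, 4 matched-peak signal columns that could not be tied to samples were not used. Of 635 ranked peaks at a global rate of 0.01 or less, the conservative list holds 615, and the other 20 are missing from it for a reason not given in the sources used here.

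Gene starts came from Ensembl release 115 and sequence from RefSeq's copy of that assembly. Summits were assigned to intervals by position. Shares have 95% Clopper-Pearson intervals and medians exact order-statistic intervals, and the deposited values allow no depth. The scripts were tested on simulated data. Summit windows (7253 in all) were searched with blastn 2.17.0 at an e-value of 0.001. Software was scipy 1.17.1, pandas 2.3.3, numpy 2.4.6 and matplotlib 3.10.9 under Python 3.11.15.

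The promoters, the 21 gene lists and the words were chosen with earlier results of these data known, and 4 of the 11 words after reading the printed windows. Named promoters are the 12 strongest with a conservative summit and the 3 strongest without. They also include the 3 at each end of the replicate ratio and of length, those with both genes in lists and the 2 strongest of each list. Other names were added after their values were seen. Alternatives changed the peak set, threshold, assignment, interval length, ranked list, annotation, one-sided definition and replicate, 11 in all, and 1 more without repeated windows was chosen after seeing the data.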

Additional observations from a re-analysis of the deposited data

How the results depend on the processing

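The divergent share stayed above the one-sided share under each alternative, with a ratio of 3.2 (one-sided promoters as tandem intervals) to 6.51 (up to 500 bp) around 4.11. Within the length band of 501 to 999 bp it was 2.32. At a global rate of 0.001 the shares were 5.34% and 1.21%, and the median signal of divergent promoters with a conservative summit was 127.2. With any overlap of the peak in place of its summit they were 9.62% and 2.6%, the one-sided median signal was 25.5 and Spearman's rho of the replicates 0.595. With intervals up to 500 bp the divergent share was 19.0%, the median signals were 31.2 (divergent) and 23.1 (one-sided), and the median distance to the nearer start was 118.0 bp. Without other genes in the interval the one-sided median was 24.3. One-sided promoters taken as tandem intervals gave 3.89% and a median of 23.7, and those not ended at gene bodies 2.44%. From 1 replicate's own lists, whose peaks are fewer and whose signals are lower than in the pooled list, the divergent share was 7.34% to 8.5% and the one-sided share 1.94% to 2.0%. There the median signals were 17.8 to 20.2 (divergent), 15.2 to 17.6 (one-sided) and 60 to 74.1 (divergent with a thresholded summit). For the optimal list, the other ranked list, intervals of at least 100 bp and the exclusion of repeated windows, added after seeing the data, every value stayed within the main interval. For the alternatives above the cause was not tested. No paired analysis was possible because there was only 1 group. Promoters of one genome share libraries, and depth is unknown, so a promoter without a conservative peak is not shown to be unbound.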
